A study of Caenorhabditis elegans with 6 samples.

Results

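The genes scav-1 to scav-6 are the C. elegans relatives of CD36, and all 6 were found by their WormBase symbols among the 46778 genes of the count tables. All 6 also had enough reads to be among the 15950 genes tested. RNA of whole worms, collected as L4 larvae, was sequenced in 5 groups with 2 count tables each, and each table is treated as a library: wild type on E. coli OP50, wild type on Microbacterium sp. JUb74, scav-4(unk59) on OP50, scav-4(unk59) on JUb74, and scav-4(unk49) on OP50. OP50 is the standard laboratory food, and JUb74 is a food that the series title calls rich in branched chain fatty acids. Every group was raised on its bacteria from the first larval stage. The labels do not say what kind of lesion unk59 or unk49 is, each allele is represented by 1 strain, and unk49 on JUb74 was not analysed here. No label tells whether the libraries within a group are from separate cultures, so p-values measure the spread between libraries, which may be technical.

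CD36 family proteins are anchored in a membrane by a segment at each end and carry a large domain outside the cytosol or inside the lysosome, with a tunnel through which lipids can pass. In mammals CD36 takes up long-chain fatty acids and oxidised lipoproteins, SR-BI takes up cholesteryl esters from lipoproteins, and LIMP-2 sits in the lysosomal membrane. In worms, SCAV-3 is the LIMP-2-like protein of the lysosomal membrane, and SCAV-1 has been linked to defence against fungi. The allele series here concerns scav-4, so the other 5 genes are its paralogs, and the question was which of them differed where scav-4 was low.

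The genes lie on 3 chromosomes, in coordinates of WBcel235. scav-1 (WBGene00015389, minus strand, 5397699 to 5400584), scav-5 (WBGene00011076, plus strand, 9858365 to 9861738) and scav-4 (WBGene00008692, plus strand, 12981775 to 12985868) are on chromosome X. scav-3 (WBGene00013039, minus strand, 12453588 to 12456850) and scav-2 (WBGene00013578, minus strand, 13550601 to 13555334) are on chromosome III, and scav-6 (WBGene00008542, plus strand, 7354491 to 7357213) is on chromosome I. Each is annotated as protein-coding with 1 transcript. Coding lengths are alike, from 1602 bases in scav-3 to 1770 in scav-6. The exon number is 12 in scav-1, scav-4, scav-5 and scav-6, 8 in scav-3 and 7 in scav-2, whose exons are also the longest in sum, at 2349 bases.

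**Figure D1:**
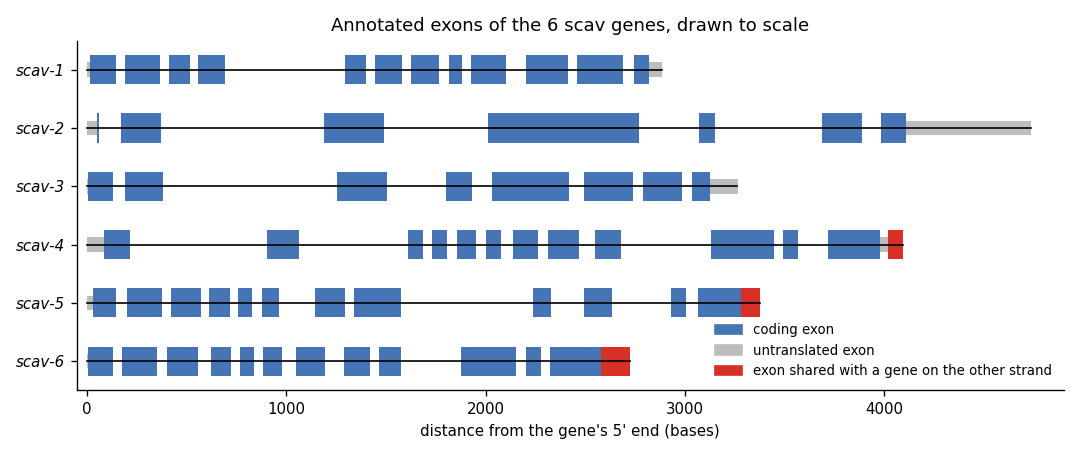
Annotated exons of the 6 scav genes along the distance from each gene's 5′ end in bases, with coding exons, untranslated exons and exon shared with a gene on the other strand in different colours. Shared exon is at the 3′ end of scav-4 (79 bases), scav-5 (93 bases) and scav-6 (146 bases), and scav-1, scav-2 and scav-3 have none.

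The 3′ ends of 3 members overlap a gene on the other strand. scav-4 shares 79 exonic bases with mff-1, scav-5 shares 93 with gst-36 and scav-6 shares 146 with F07A5.4. Read pairs counted as ambiguous between overlapping genes are left out of the unstranded counts used here. For scav-5 this matters most: the strand columns together held 210 to 406 more pairs per library than its unstranded count, or 26.2% to 83.1% of it. The surplus was 26 to 117 pairs for scav-4, and at most 6 pairs for each of the other 4 members. That holds for scav-6 too, although its annotated overlap is the longest, so few of its pairs were left out. The reason was not tested.

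Libraries held between 21937088 and 22692632 read pairs in genes. Values below are in CPM, read pairs scaled to the size of each library with TMM factors, and levels of different genes are compared only as CPM per kb of exon. Markers of intestine, epidermis, body wall muscle, neurons and germline were detected in every library, and 1 of 4 pharynx markers was at 0 in library 2 of unk49. Reproductive and moulting markers differed between the groups although all were labelled L4. The 10 oocyte and eggshell markers summed to 1584 to 3894 CPM in unk49 on OP50 and 1364 to 1925 in unk59 on JUb74, against 74.6 to 75.5 in wild type on OP50, 13.2 to 25.2 in unk59 on OP50 and 10.8 to 13.9 in wild type on JUb74. The 10 moulting-cycle markers summed to 1089 to 1348 CPM in unk49 and 225 to 361 in unk59 on JUb74, and to between 3985 and 6110 in the other 3 groups. By summed level, the groups of each comparison below differed in oocyte or moulting markers. Between unk59 and wild type on OP50, 0 of 10 oocyte and 0 of 10 moulting markers had an adjusted p under 0.05 (edgeR). Of all genes tested, 0.0125% did, so this count says little. Genotype or diet and developmental timing cannot be told apart in any of the comparisons. In RNA from whole worms, fewer cells of a type and less RNA per cell cannot be told apart either. Libraries of 1 group could differ in markers as well. The 6 yolk genes summed to 73.2 and 5410 CPM in libraries 1 and 2 of unk59 on OP50. The 8 intestinal markers summed to 6131 and 3498 CPM in libraries 1 and 2 of wild type on JUb74. The part of such differences in the values of the members was not tested.

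Per length, scav-1 had the highest mean level of the family in all 5 groups and scav-3 the next. In wild type on OP50 the means were 97.6 ± 7.68 CPM per kb for scav-1, 42.6 ± 0.282 for scav-3, 27.4 ± 1.95 for scav-6, 22.1 ± 4.17 for scav-4, 12.5 ± 0.442 for scav-2 and 10.8 ± 2.78 for scav-5 (SD, n = 2). The libraries of neighbours in this order did not overlap, except those of scav-2 and scav-5. In unk49 the lower part of the order was different: scav-5 was at 26.2 ± 5.99 CPM per kb, scav-2 at 23.1 ± 7.56, scav-6 at 15.001 ± 5.47 and scav-4 at 3.50 ± 0.420 (SD, n = 2). There scav-5 overlapped scav-2, and scav-2 overlapped scav-6, while scav-4 was below all. These levels rest on the unstranded counts. For scav-5 the surplus in the strand columns was 63.8% and 81.4% of that count in wild type on OP50. In unk49 it was 31.6% and 26.2%. The exon length of scav-5 includes its overlap with gst-36, so its place in both orders may depend on the count column.

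The targeted gene was examined first. scav-4 was at 47.3 and 36.14 CPM in wild type on OP50, 39.3 and 38.3 in unk59 on OP50, 38.1 and 31.2 in unk59 on JUb74, 33.1 and 9.93 in wild type on JUb74, and 6.04 and 7.16 in unk49 on OP50. The unk49 libraries were therefore below every other library, and the unk59 libraries lay within or close to the wild-type range on OP50. The next lowest value was that of library 2 of wild type on JUb74, with 234 reads against 688 in library 1. Across all 10 libraries scav-4 varied 7.82-fold between the highest and lowest CPM, against 1.37-fold for scav-3, the least variable member.

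**Figure D2:**
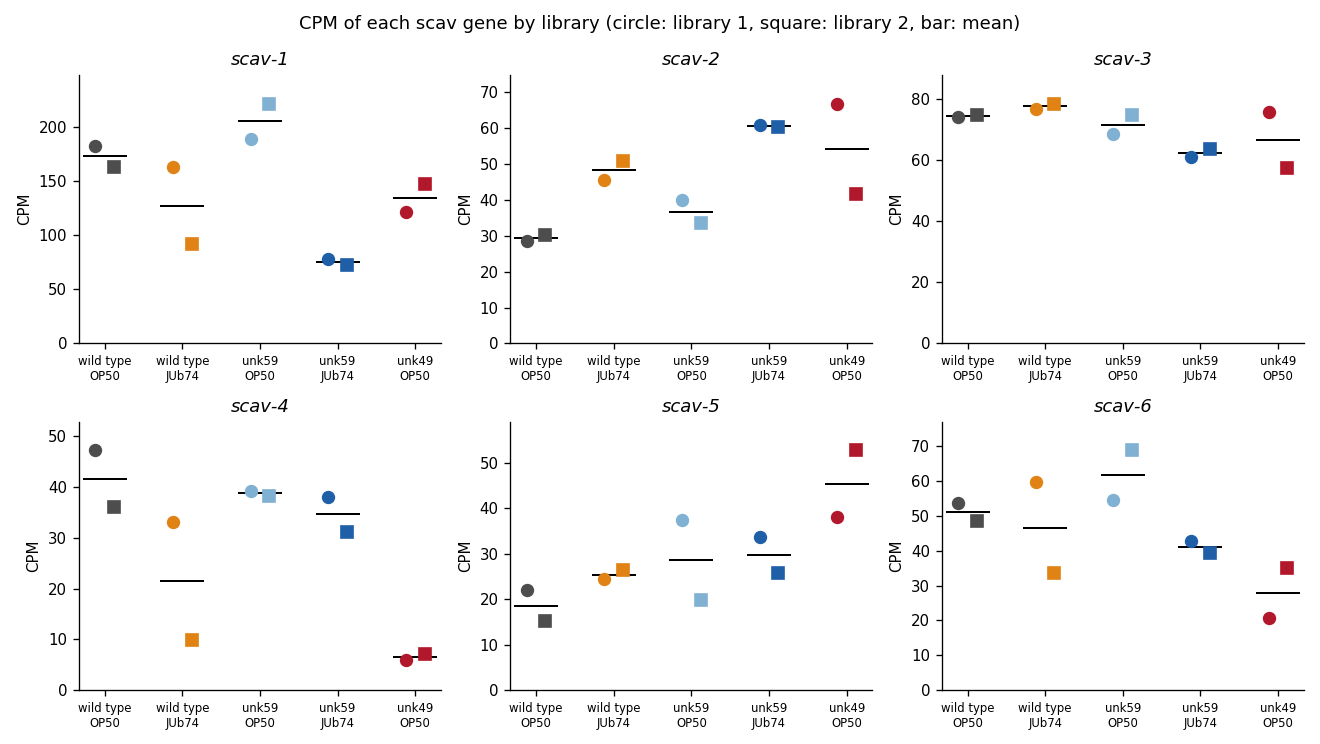
CPM of each scav gene (vertical axes, starting at 0) in the 10 libraries, by group, with circles for library 1, squares for library 2 and a bar for the mean of the group. scav-4 is lowest in both unk49 libraries, at 6.04 and 7.16 CPM, where scav-5 is highest, at 38.04 and 52.7 CPM.

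In unk49 worms on OP50, scav-4 fell, scav-5 and scav-2 rose, and scav-6 fell relative to wild type on the same food. These 4 of 6 members had an adjusted p under 0.05 (edgeR, quasi-likelihood F test), 2 higher and 2 lower. Over all genes tested the share was 46.3%, with 27.2% higher and 19.1% lower, and the count of 4 among 6 is to be read against it. Without library 1 or library 2 of wild type, 4141 of 16476 and 4292 of 16484 genes passed, against 7392 with both, and 2 and 1 members did. The libraries of the groups did not overlap for 5 of the 6 members, and for 75.1% of all genes tested. The median log2 fold change of the members was -0.26, beside 0.11 over all genes tested.

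scav-4 was 6.31-fold lower in unk49 than in wild type (log2 fold change -2.66, 95% interval -3.71 to -1.61, adjusted p 0.00213 in edgeR). In absolute size this was larger than the change of 89.1% of all genes tested. mff-1, the gene that overlaps its 3′ end, was at 9.30 and 15.4 CPM in unk49 against 7.75 and 7.52 in wild type, and its log2 fold change of 0.70 did not pass (adjusted p 0.0576 in edgeR).

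scav-5 had 21.998 and 15.2 CPM in wild type on OP50 and 38.04 and 52.7 CPM in unk49. Both unk49 libraries were above both wild-type libraries, and above all other libraries of the study, where the highest was 37.4 CPM in library 1 of unk59 on OP50. The rise was 2.44-fold (log2 fold change 1.29, 95% interval 0.56 to 2.02, adjusted p 0.0109 in edgeR). The call was lost without library 2 of wild type (log2 fold change 1.04, adjusted p 0.0903) and without library 2 of unk49 (0.95, adjusted p 0.0670). Counted from 1 strand column the change was 0.79, still past the threshold (adjusted p 0.0258 in edgeR). Before scaling, library 1 of unk49 held 579 pairs in that column, against 589 in library 1 of unk59 on JUb74. The place of both unk49 libraries above all others thus depends on the count column. That column includes the pairs in the overlap with gst-36, and gst-36 itself did not pass, with a log2 fold change of -0.33 (adjusted p 0.219 in edgeR).

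scav-2 had 28.6 and 30.1 CPM in wild type on OP50 and 66.8 and 41.7 CPM in unk49. Both unk49 libraries were higher, but they lay far apart. The rise was 1.85-fold (log2 fold change 0.89, 95% interval 0.38 to 1.396, adjusted p 0.0114 in edgeR). Without library 1 of unk49 the change was 0.37 (adjusted p 0.0904), and the call was also lost without either wild-type library (0.85 and 0.92, adjusted p 0.0778 and 0.0621) and with only the groups compared in the fit (0.84, adjusted p 0.0535).

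scav-6 moved in the same direction as scav-4. It had 53.6 and 48.5 CPM in wild type on OP50 and 20.7 and 35.1 CPM in unk49, with no overlap. The fall was 1.83-fold (log2 fold change -0.87, 95% interval -1.57 to -0.17, adjusted p 0.0447 in edgeR). This call was close to the threshold and was lost under 6 of 18 alternatives, where the adjusted p reached 0.162, among them the exclusion of either wild-type library (-0.80 and -0.95), of library 1 of unk49 (-0.68) or of library 1 of unk59 on JUb74 (-0.87). Without library 2 of unk49 the change was -1.38 (adjusted p 0.0167). F07A5.4, the gene on the other strand at its 3′ end, also fell in unk49 (log2 fold change -0.98, adjusted p 0.0265).

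The remaining members did not pass. scav-1, the most abundant, had 182 and 163 CPM in wild type and 122 and 148 CPM in unk49, which gave a log2 fold change of -0.36 (95% interval -0.94 to 0.22, adjusted p 0.277). For scav-3 the unk49 libraries, at 75.7 and 57.4 CPM, lay on either side of the wild-type libraries, at 74.1 and 74.8 CPM. Its log2 fold change was -0.16 (95% interval -0.55 to 0.22, adjusted p 0.462), so a change of the size seen in scav-5 lies outside the interval. Without library 1 of unk49 it was -0.51 and passed (adjusted p 0.0299).

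Summed over the 6 genes, the family was at 213 CPM per kb in wild type on OP50 and 182 in unk49, a mean difference of -31.0. The loss of scav-4 was -18.6 CPM per kb, and the gains were 15.5 for scav-5 and 10.6 for scav-2, 26.1 for both. scav-1 and scav-6 differed by -21.5 and -12.4 CPM per kb. By the unstranded counts, the gains of scav-5 and scav-2 thus exceeded the loss of scav-4 in size. The sum over the family was lower in both unk49 libraries (177 and 187) than in both wild-type libraries (224 and 202). No test was made on the sum, since it is a score over the members.

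**Figure D3:**
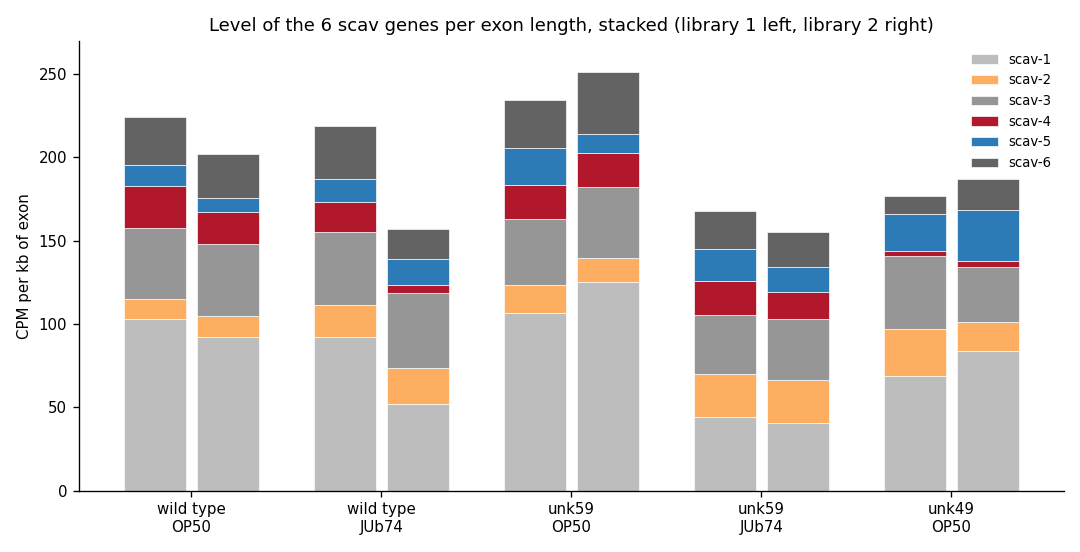
Level of the 6 scav genes in CPM per kb of exon (vertical axis, starting at 0), stacked for each of the 10 libraries, with library 1 left and library 2 right in each group. In unk49 scav-4 makes up 1.81% and 2.03% of the family sum and scav-5 12.4% and 16.3%, against 9.51% to 11.2% and 4.36% to 5.68% in wild type on OP50.

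The alleles were also compared with each other on OP50, with the same unk49 libraries as above. Of the 6 members, scav-4 and scav-6 passed, both lower in unk49 than in unk59, while 54% of all genes tested passed, 30.2% higher and 23.8% lower. Libraries did not overlap for 5 of 6 members and for 76.1% of all genes tested. scav-4 was 5.88-fold lower in unk49 (log2 fold change -2.56, 95% interval -3.60 to -1.51, adjusted p 0.00181 in edgeR). scav-6 was 2.20-fold lower (log2 fold change -1.14, 95% interval -1.84 to -0.44, adjusted p 0.0129), from 54.4 and 68.7 CPM in unk59. Its call was lost without library 2 of unk59 (adjusted p 0.0601) or library 1 of unk49 (adjusted p 0.0653).

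For scav-5 the unk59 libraries on OP50 lay far apart, at 37.4 and 19.8 CPM, the former nearly at the lower unk49 value of 38.04. The difference was 0.66 on the log2 scale (95% interval -0.06 to 1.38, adjusted p 0.105) and did not pass. It was 1.19 without library 1 of unk59 (adjusted p 0.0195) and 0.27 without library 2, and it also passed with at least 10 counts in every library (0.83, adjusted p 0.0493). For scav-2, with 39.8 and 33.5 CPM in unk59 on OP50, the difference was 0.57 (95% interval 0.06 to 1.07, adjusted p 0.0578), which passed under relative log expression scaling (adjusted p 0.0384), under DESeq2 (adjusted p 0.0284) and with at least 10 counts in every library (adjusted p 0.0224). Its value was 0.89 without library 2 of unk49 (adjusted p 0.00325) and 0.15 without library 1. scav-1 was at -0.61 (adjusted p 0.0724) and passed under upper-quartile scaling (adjusted p 0.0262), in the strand column (0.0456) and without either library of wild type on JUb74 (0.0198 and 0.0184). The rises of scav-5 and scav-2 against wild type are thus not shown to be larger in unk49 than in unk59.

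Between unk59 and wild type on OP50, 0 of 6 members passed in edgeR, and 0.0125% of all genes did, 2 of 15950, while 1845 had an unadjusted p under 0.05. DESeq2 called 0 members as well and 432 of 14713 genes, and without library 2 of unk59 edgeR called 409 of 16464. Without a filter on low counts it called 102 of 23798, and none of the 6 had an unadjusted p under 0.05 in edgeR. scav-4 had a log2 fold change of -0.10 with a 95% interval of -1.07 to 0.87. The largest value among the paralogs was that of scav-5, at 0.62 (95% interval -0.11 to 1.35, adjusted p 0.519), or 1.01 without library 2 and 0.09 without library 1 of unk59. The rise of scav-5 seen in unk49 lies inside this interval. For scav-2 the change was 0.32, with an interval of -0.19 to 0.83, just short of its rise in unk49. Libraries did not overlap for 3 of 6 members, scav-1, scav-2 and scav-6, and for 53.8% of all genes tested.

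**Figure D4:**
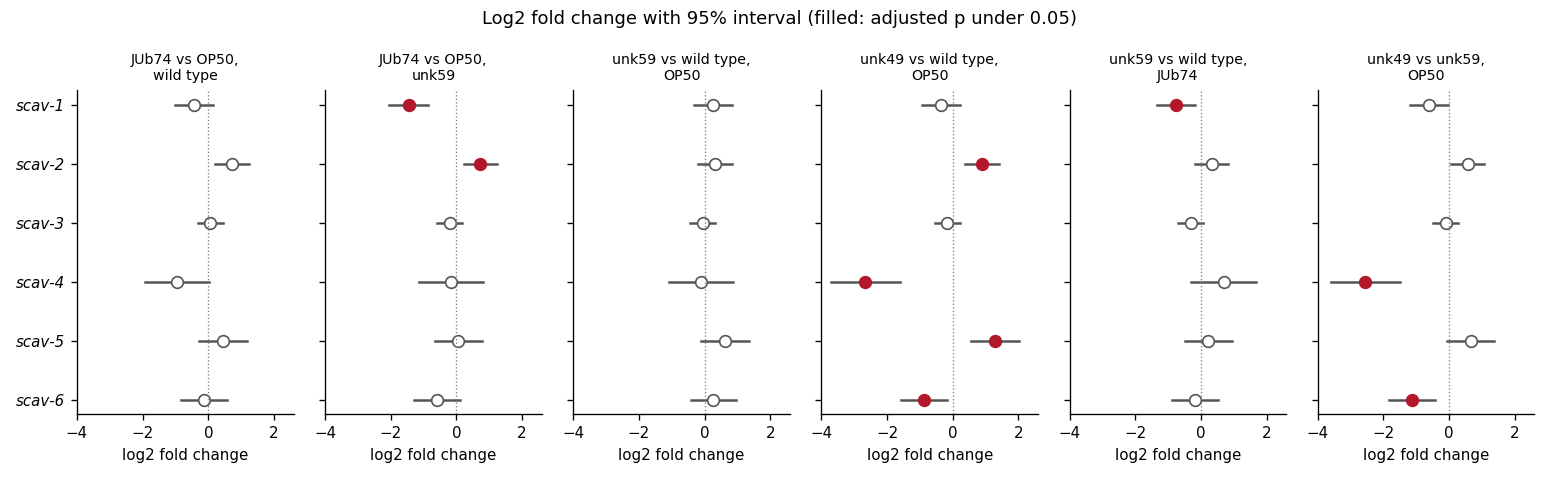
Log2 fold change of each scav gene (horizontal axes) with its 95% interval in 6 comparisons, with filled points for an adjusted p under 0.05 in edgeR's quasi-likelihood test. The filled points on the right of 0 are scav-5 (1.29) and scav-2 (0.89) in unk49 against wild type and scav-2 (0.73) on JUb74 in unk59.

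The change of food was compared next. In wild type, 0 of 6 members passed between JUb74 and OP50, where 8.94% of all genes tested did, 2.65% higher and 6.29% lower. The unadjusted p was under 0.05 for 3975 genes, and scav-2 was the only member among them. DESeq2 also called 0 members. scav-2 had 45.6 and 50.9 CPM on JUb74 and 28.6 and 30.1 on OP50, a log2 fold change of 0.72 (95% interval 0.21 to 1.23, adjusted p 0.0801). It passed with only the groups compared in the fit (adjusted p 0.0335) and without either unk49 library (adjusted p 0.0390 and 0.0395). Libraries did not overlap for 5 of 6 members, all but scav-6, and for 62% of all genes tested. The number of genes called rests on single libraries here: it was 1426 with all, 19 and 13 without library 1 and library 2 of wild type on OP50, 472 and 27 without library 1 and library 2 of wild type on JUb74, and 2180 under DESeq2. Reproductive markers moved with this comparison: 5 of 5 germline markers, 5 of 10 oocyte, 5 of 6 yolk and 3 of 6 sperm markers fell on JUb74. Their summed levels on JUb74 and OP50 were 31.2 to 62.3 and 244 to 290 CPM for germline, and 5.35 to 23.0 and 2058 to 4423 CPM for yolk, and their part in the values of the members was not tested.

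scav-4 in wild type had a log2 fold change of -0.96 (95% interval -1.94 to 0.03, adjusted p 0.211), and the JUb74 libraries decide its size. Without library 1 it was -2.08 (adjusted p 0.0183), and without library 2 it was -0.49. In library 2, where scav-4 was at 9.93 CPM, scav-1 was at 91.4 and scav-6 at 33.7 CPM, against 163 and 59.6 in library 1. scav-2 and scav-5 in the same libraries were closer, at 50.9 and 26.4 CPM in library 2 and 45.6 and 24.4 in library 1. scav-3 was at 78.5 and 76.6 CPM.

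In unk59 worms, scav-2 rose and scav-1 fell on JUb74, while scav-4 did not pass. These 2 of 6 members passed, beside 59.8% of all genes tested, 33.5% higher and 26.3% lower. scav-2 went from 39.8 and 33.5 CPM on OP50 to 60.9 and 60.2 on JUb74, a rise of 1.65-fold (log2 fold change 0.73, 95% interval 0.22 to 1.23, adjusted p 0.0199 in edgeR). Its call was lost without library 2 on OP50 (0.60, adjusted p 0.120) and without either JUb74 library (0.72 for both, adjusted p 0.0705 and 0.0811). scav-1 went from 189 and 222 CPM to 78.4 and 72.1, a fall of 2.73-fold (log2 fold change -1.45, 95% interval -2.04 to -0.86, adjusted p 0.00139), and passed under all 18 alternatives.

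scav-4 was nearly level in unk59, with a log2 fold change of -0.16 (95% interval -1.13 to 0.81, adjusted p 0.762). scav-5 stood at 33.7 and 25.7 CPM on JUb74 against 37.4 and 19.8 on OP50, with overlap and a log2 fold change of 0.06 (95% interval -0.66 to 0.77, adjusted p 0.893). scav-6 had a log2 fold change of -0.59 (95% interval -1.28 to 0.11, adjusted p 0.128), which passed with only the groups compared in the fit (adjusted p 0.0364). In this comparison the summed oocyte markers also differed, at 13.2 to 25.2 CPM on OP50 and 1364 to 1925 on JUb74, and their part in the changes of scav-2 and scav-1 was not tested.

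The size of the food effect was compared between genotypes as an interaction, and 0 of 6 members passed, beside 43.3% of all genes, 23.3% above 0 and 20% below. The unadjusted p was under 0.05 for 8265 genes. scav-1 was nearest, with an interaction of -1.01 (95% interval -1.83 to -0.18, adjusted p 0.0501 in edgeR) and an unadjusted p of 0.0217, and it was the only member with an unadjusted p under 0.05. It passed without a filter on low counts (adjusted p 0.0310), in the strand column (0.0440), with only the groups compared in the fit (0.0401) and without library 2 of wild type on JUb74 (0.00978). For scav-2 the interaction was 0.01 (95% interval -0.71 to 0.72, adjusted p 0.994). DESeq2 called 0 members here too. For scav-4 it was 0.80 (95% interval -0.58 to 2.17, adjusted p 0.321), or 1.91 without library 1 of wild type on JUb74 (adjusted p 0.00359).

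On JUb74, unk59 and wild type differed in 1 member, scav-1, beside 59% of all genes, 33% higher and 26.1% lower. It was 1.69-fold lower in unk59 (log2 fold change -0.76, 95% interval -1.34 to -0.17, adjusted p 0.0304 in edgeR). The size rests on the wild-type libraries, at 163 and 91.4 CPM: without library 1 the change was -0.28 (adjusted p 0.317) and without library 2 it was -1.07. The call was also lost without either unk59 library (adjusted p 0.0906 and 0.149), with only the groups compared in the fit (0.0570) and with at least 10 counts in every library (0.0535). scav-2 was at 0.33 (adjusted p 0.232) and passed without either unk49 library (adjusted p 0.0383 and 0.0393). scav-4 was at 0.69 (95% interval -0.29 to 1.67, adjusted p 0.197), or 1.80 without library 1 of wild type (adjusted p 0.00156) and 0.12 without library 2.

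The groups with the highest oocyte markers, unk59 on JUb74 and unk49 on OP50, were set against each other as well, although they differ in both allele and food. scav-4 alone passed among the 6 members, beside 17% of all genes, 8.54% higher and 8.46% lower. It was 5.25-fold higher in unk59 on JUb74 (log2 fold change 2.39, 95% interval 1.35 to 3.43, adjusted p 0.00954 in edgeR), and this change exceeded in size that of 95.7% of all genes. The call was lost without library 1 of either group (2.24 and 2.31, adjusted p 0.0709 and 0.0740). scav-2 was at 0.16 (95% interval -0.34 to 0.66, adjusted p 0.624) and scav-5 at -0.61 (95% interval -1.33 to 0.11, adjusted p 0.193). The moulting markers still differed between these groups, as given above. scav-2 was at 60.9 and 60.2 CPM in worms with scav-4 at 38.1 and 31.2, and at 66.8 and 41.7 CPM in worms with scav-4 at 6.04 and 7.16. scav-5 was at 33.7 and 25.7 CPM and at 38.04 and 52.7 CPM in the same groups, with no overlap. scav-1 was at -0.84 (adjusted p 0.0537) and passed under 6 of 18 alternatives, with DESeq2 among them (-0.86, adjusted p 0.0128).

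Across the 10 libraries, log2 CPM of scav-4 had a Pearson coefficient of 0.84 with scav-6, 0.25 with scav-1, 0.08 with scav-3, -0.48 with scav-2 and -0.60 with scav-5. These values describe 10 libraries that come in pairs of a group, and the unk49 pair is the lowest for scav-4. Between paralogs, scav-1 and scav-2 had a coefficient of -0.79 and scav-2 and scav-5 of 0.52.

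**Figure D5:**
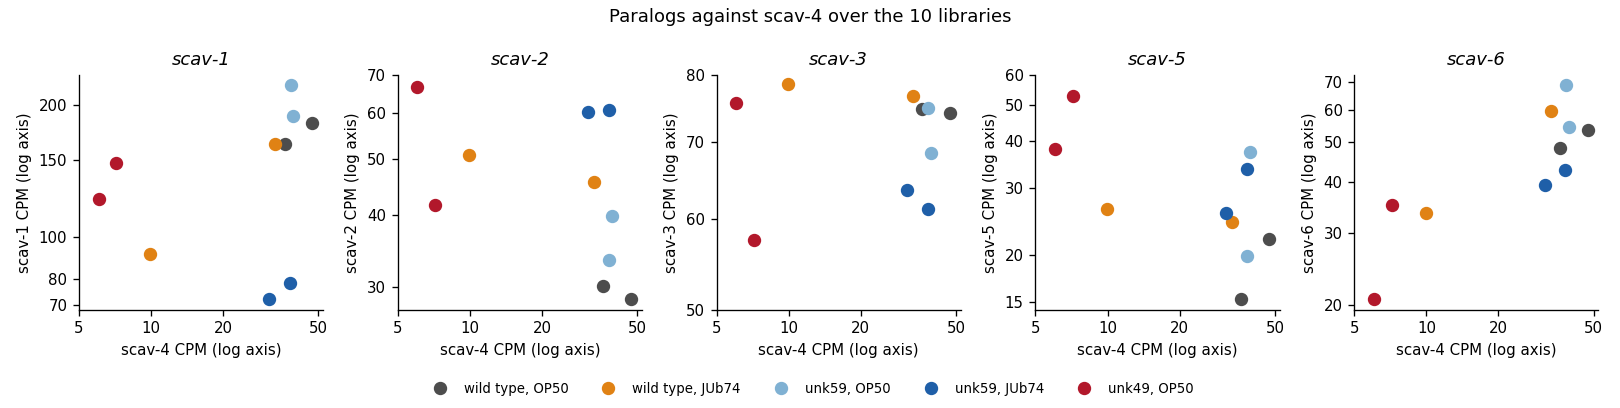
CPM of each paralog (vertical log axes) against CPM of scav-4 (horizontal log axes) in the 10 libraries, coloured by group. The points with low scav-4 are the unk49 pair and library 2 of wild type on JUb74 (9.93 CPM), and scav-5 is above the rest in the unk49 pair but at 26.4 CPM in the latter.

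The genes most alike in pattern to each member over the 10 libraries, again as a description, were named by their Pearson coefficient. For scav-2 they were atgl-1 (0.96), the triglyceride lipase of lipid droplets, mxl-2 (0.95), a Max-like transcription factor, and abhd-5.1 (0.94), a relative of the mammalian ATGL co-activator. atgl-1 went from 34.1 and 38.1 CPM in wild type on OP50 to 91.7 and 59.6 in unk49 and to 106 and 91.9 in unk59 on JUb74, with library 1 of unk49 above library 2 as for scav-2. It passed in unk49 against wild type (log2 fold change 1.07, adjusted p 0.00527 in edgeR) and on JUb74 in unk59 (1.27, adjusted p 0.00138). Of all genes tested, 46.3% and 59.8% passed in these comparisons. atgl-1 was picked for its likeness to scav-2 in the same libraries, so its calls are not separate evidence.

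For scav-6 the nearest genes were prx-3 (0.98), a peroxin needed to build peroxisomes, mboa-7 (0.97), an acyltransferase of phosphatidylinositol, and dhrs-4 (0.94), a short-chain dehydrogenase. For scav-1 they were mocs-1 (0.99), spin-3 (0.98), which belongs to the spinster-like transporters, and ugt-23 (0.98), a UDP-glucuronosyltransferase. For scav-3 they were ero-1 (0.96), the oxidase of the endoplasmic reticulum, helq-1 (0.95), a DNA helicase, and unc-40 (0.94), the netrin receptor. For scav-4 the coefficients were lower, with zipt-13 (0.92), a zinc transporter, ptr-24 (0.92), a patched-related protein, and smex-1 (0.92). For scav-5 they were lowest, with rap-2 (0.88), a small GTPase, cgt-3 (0.87), a ceramide glucosyltransferase, and fbxa-29 (0.85), an F-box protein. cgt-3 was at 150 and 226 CPM in unk49 and 93.2 and 78.7 in wild type on OP50.

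Genes that work beside CD36-type receptors were examined by list. Among 11 genes of fatty acid uptake and binding, 5 rose and 2 fell in unk49 against wild type, with a median log2 fold change of 0.69 beside 0.11 over all genes, and with 46.3% of all genes called. lbp-9, a fatty acid binding protein, rose by 1.54 (adjusted p 0.00208 in edgeR), and lbp-1, lbp-8, lbp-7 and lbp-2 also passed. acs-20, an acyl-CoA synthetase of the fatty acid transport protein family, fell from 103 to 32.9 CPM (log2 fold change -1.65, adjusted p 0.000518), and its relative acs-22 fell by 0.79 (adjusted p 0.0210). The count was 4 without library 1 of wild type. In wild type on JUb74, 0 of the 11 passed, beside 8.94% of all genes.

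The counts of the next 3 lists are to be read against 46.3% of all genes called in unk49 against wild type, 27.2% higher and 19.1% lower. Of 12 genes of lipid droplets and triglyceride synthesis, 3 rose and 3 fell in unk49, with a median of -0.10. dgat-2, which makes triglyceride at lipid droplets, fell from 130 to 31.4 CPM (log2 fold change -2.05, adjusted p 0.000715 in edgeR). A worm relative of ABHD5, lid-1, rose from 18.5 to 50.7 CPM (log2 fold change 1.46, adjusted p 0.000827 in edgeR). Of 16 lysosomal genes, 2 rose and 3 fell, with a median of -0.12. ppk-3, a phosphoinositide kinase, fell by 0.86 (adjusted p 0.00276), and lmp-1, a membrane protein of the lysosome, fell by 0.91 (adjusted p 0.00716). Without library 1 or library 2 of wild type, 1 and 2 of the 16 passed. Among 12 tested genes of phagocytic receptors and engulfment, 3 rose and 3 fell, with a median of -0.03. psr-1, an engulfment receptor, rose from 13.3 to 35.2 CPM (adjusted p 0.00105), and pat-2, an integrin subunit that is also a part of muscle attachments, fell by 1.52 (adjusted p 0.00146).

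Between the foods in unk59, 6 of 11 uptake and binding genes rose and 3 fell, 6 of 12 lipid droplet genes rose and 3 fell, 3 of 16 lysosomal genes rose and 9 fell, and 3 of 12 engulfment genes rose and 4 fell, beside 59.8% of all genes. In wild type only 1 lipid droplet gene rose and 1 lysosomal gene fell among the genes of these lists, beside 8.94%. Between unk59 and wild type on OP50, 0 of the genes of the 4 lists passed, beside 0.0125% of all genes. With so few calls over all genes, this count says little about the lists.

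Epidermal, muscle and intestinal markers moved with the same groups. In unk49 against wild type, 5 of 6 epidermal markers fell, among them dpy-7 (log2 fold change -1.81) and sqt-3 (-1.75), 3 of 5 body wall muscle markers fell, and of 8 intestinal markers 2 rose and 3 fell, with pept-1 at -0.85 and cpr-1 at 1.89. Their summed levels in unk49 and wild type on OP50 were 579 to 799 and 2015 to 2120 CPM for epidermis, 2878 to 2953 and 5166 to 7273 for muscle, and 3720 to 4430 and 4585 to 4784 for intestine. Of 5 neuronal markers 3 fell, among them rab-3 (-1.17) and unc-104 (-1.19), and of 3 tested pharynx markers 1 fell, pha-4 (-0.83). Of 5 germline markers 4 rose, with gld-1 at 3.12. All 10 oocyte markers rose, with egg-2 at 5.62 and egg-1 at 5.85. Sperm markers rose in 3 of 6, with spe-11 at 3.77, and of the 6 yolk genes 0 passed, with vit-2 at 4.01. Of 10 moulting-cycle markers 9 fell, with fbn-1 at -2.88 and noah-1 at -2.27. These calls are edgeR calls, as above. Of all genes tested, 46.3% were called in this comparison, 27.2% higher and 19.1% lower, and the marker counts are to be read against that. The part of these shifts in the changes of scav-2, scav-5 and scav-6 was not tested.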

How the data were processed

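Whole-worm RNA was sequenced in 10 libraries, and the authors deposited unnormalized counts of read pairs for each gene, in 1 table per library. The layout is that of STAR gene counts; STAR 2.7.10, DESeq2 and WBcel235 are named in the submitters' processing notes, and the annotation release is not given in the sources used here. Another table, which belongs to no sample, was not analysed (1 file). Although the labels' protocols call the kit strand-specific, genes with at least 100 reads had a median of 49.8% to 50.1% of their reads in strand column 4, so the unstranded counts were used. Each table entered as a library, because counts within a group had a chi-square of 19.8 to 88.9 per degree of freedom, over genes with at least 10 reads. Unmapped (2.02% to 2.61%), multimapping (2.28% to 3.49%), unassigned (0.350% to 0.537%) and ambiguous pairs (1.72% to 1.85%) stayed out of library sizes.

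Counts were fitted in R 4.3.3 with edgeR 4.0.16 (TMM, filterByExpr, robust quasi-likelihood F tests, two-sided, 5 group means), with Benjamini-Hochberg adjustment over the 15950 genes tested and a threshold of 0.05. The common coefficient of variation was 23.4%. All groups shared 1 estimate of the spread. Standard errors were the size of the log2 fold change over the square root of F, and 95% intervals from these with a t distribution, unadjusted for the number of tests. Exon lengths and positions are those of the Ensembl annotation of WBcel235. The 8 comparisons share libraries and are not independent. The members, the gene lists and the rule for named genes (all members, the 3 genes most alike to each whose mean log2 CPM reached 1, and in each list the 2 genes with the smallest adjusted p in unk49 against wild type; other names were chosen after their values were seen) were set with earlier results of these data known. DESeq2 1.42.0 was an alternative, beside other scalings, filters, count columns and libraries left out. The fit was tested on simulated data.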

Additional observations from a re-analysis of the deposited data

How the results depend on the processing

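With 2 libraries per group, most calls on members were lost when some single library was left out. The exceptions, called with any library left out, were scav-4 in unk49 against wild type and against unk59, and scav-1 in unk59 between foods. Of 864 values of member and comparison under the alternatives, 787 kept their direction and their side of the threshold, 24 lost and 30 gained a call, and 23 changed sign, all of them uncalled. The number of members called in unk49 against wild type was 4. It was 3 with at least 10 counts in every library, with only the groups compared, and with the library number as a replicate block. In unk49 against unk59 it was 2, and 4 with at least 10 counts in every library. It was 3 there under relative log expression scaling, upper-quartile scaling and DESeq2, and in the strand column. Between foods in unk59 it was 2, and 3 with only the groups compared. Between foods in wild type it was 0, and 1 with only the groups compared. On JUb74, unk59 against wild type had 1 member called. That count was 0 with at least 10 counts in every library or with only the groups compared. For the interaction it was 0, and 1 without a filter, in the strand column or with only the groups compared. For unk59 on JUb74 against unk49 it was 1. It was 2 there under relative log expression scaling, without a filter, with at least 10 counts in every library or under DESeq2. Between unk59 and wild type on OP50 it was 0 throughout.

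Sign changes occurred in values that had not passed, the largest in size being the interaction of scav-6 (-0.46) and of scav-5 (-0.39). With at least 10 counts in every library, scav-4 between foods in unk59 was 0.012 and scav-3 in unk49 against unk59 was 0.065. Upper-quartile scaling turned scav-3 in unk59 on JUb74 against unk49 to 0.10. For the interaction, scav-2 was -0.05 with only the groups compared and scav-5 was 0.008 in the strand column. With a library left out the log2 fold changes that changed sign ranged as follows. Between foods in wild type they were -0.109 to 0.069 for scav-3 and -0.609 to 0.071 for scav-6, and in unk59 -0.34 to 0.58 for scav-5. On OP50 unk59 against wild type ranged from -0.148 to 0.009 for scav-3 and -0.29 to 0.10 for scav-4, and on JUb74 from -0.49 to 0.29 for scav-6. In unk49 against unk59 scav-3 ranged from -0.364 to 0.092. The interaction ranged from -0.11 to 0.24 for scav-2, -0.78 to 0.14 for scav-5 and -0.669 to 0.016 for scav-6, and unk59 on JUb74 against unk49 from -0.17 to 0.58 for scav-2 and -0.30 to 0.16 for scav-3. The cause was not tested.

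The median over all genes in unk49 against wild type was 0.11, 0.15 under relative log expression and -0.09 under upper-quartile scaling; under these scalings scav-4 was -2.62 and -2.86, scav-5 1.33 and 1.09, scav-2 0.94 and 0.68, and scav-6 -0.83 and -1.06. The library numbers stand in file names only, and same-numbered libraries did not deviate together (Pearson coefficients of -0.27 to 0.23 between groups). With the number as a replicate block, scav-6 in unk49 against wild type lost its call (-0.87, adjusted p 0.0682), and no other member's call changed. Exon length by the longest transcript could not differ, since each member has 1 transcript.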
